A study of Mus musculus with 2 samples.

Results

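The 40 genes described here are imprinted genes of the mouse, transcribed mainly or only from the allele inherited from 1 parent. They were chosen by name from the RefSeq annotation of GRCm38.p6, the assembly behind mm10, out of 49595 genes on chromosomes 1 to 19, X and Y, of which 21774 are protein-coding. They comprise 37 protein-coding genes and 3 long noncoding RNA (lncRNA) genes, H19, Kcnq1ot1 and Meg3, and they lie in 16 imprinted clusters. By textbook expression, 23 are transcribed from the paternal allele, 14 from the maternal allele and 3 from either allele depending on tissue or transcript (Grb10, Gnas and Blcap). Each gene was examined over its body with 2 kb on both sides, and each cluster from its first to its last gene with 500 kb on both sides.

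H3K9me2, dimethylated lysine 9 of histone H3, was mapped by CUT&Tag, which uses an antibody to bring a DNA-tagging transposase to chromatin that carries the mark. The material was activated B cells of C57BL/6 mice. There was 1 library labelled jmjd1c B KO (KO), with 34502392 tags, and 1 labelled WT, with 33474010 tags. The agent of activation, the allele or Cre line behind the KO label and the number of mice are not given in the sources used here. Jmjd1c encodes a jumonji protein related to demethylases of H3K9, so the genotypes are compared for where the mark lies. Since each genotype has 1 library, differences could not be set against replicates and no test was run. Intervals are exact 95% intervals for counting error only. Those of ratios ignore that the 2 lists share many sites.

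Imprinting begins with DNA methylation laid down in egg or sperm at an imprinting control region, which then silences or permits the genes around it on that parental chromosome. H3K9me2, made largely by the G9a and GLP methyltransferases, marks repressed chromatin. In mouse placenta G9a takes part in silencing the paternal copies of genes around Kcnq1ot1 and of Slc22a3 beside Igf2r. The peaks carry no parental origin and no strand, so neither allele nor overlapping genes can be told apart in them.

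Of the 9 genes with a peak in either library, 5 belong to the Snrpn cluster on chromosome 7, the mouse counterpart of the Prader-Willi and Angelman region. In this cluster Snrpn, Ndn, Magel2, Mkrn3 and Peg12 are transcribed from the paternal allele and Ube3a, in neurons, from the maternal one. The sequences below are the RefSeq promoter windows, 250 bases before to 50 after the start site, of the 4 of these genes with a peak starting within 2 kb downstream of it. That of Ube3a, which had no peak, is given for contrast. They are written 5′ to 3′ on the gene's own strand, with CG dinucleotides, the sites of DNA methylation at imprinting control regions, in capitals. On GRCm38.p6 the windows are chr7:62348027-62348326 (Ndn, plus strand), chr7:62376729-62377028 (Magel2, plus), chr7:62420104-62420403 (Mkrn3, minus), chr7:60005150-60005449 (Snrpn, minus) and chr7:59228500-59228799 (Ube3a, plus).
Ndn: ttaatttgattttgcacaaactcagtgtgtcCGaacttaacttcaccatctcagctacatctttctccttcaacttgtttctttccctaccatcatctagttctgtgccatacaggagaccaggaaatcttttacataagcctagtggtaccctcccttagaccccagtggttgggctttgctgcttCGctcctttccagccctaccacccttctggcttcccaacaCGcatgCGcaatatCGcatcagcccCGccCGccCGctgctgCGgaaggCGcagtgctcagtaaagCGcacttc
Magel2: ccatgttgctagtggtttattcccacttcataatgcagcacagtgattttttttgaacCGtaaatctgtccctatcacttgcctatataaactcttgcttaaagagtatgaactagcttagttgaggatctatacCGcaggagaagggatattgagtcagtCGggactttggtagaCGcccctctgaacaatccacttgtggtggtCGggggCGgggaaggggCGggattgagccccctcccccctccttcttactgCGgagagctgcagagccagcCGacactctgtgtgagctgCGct
Mkrn3: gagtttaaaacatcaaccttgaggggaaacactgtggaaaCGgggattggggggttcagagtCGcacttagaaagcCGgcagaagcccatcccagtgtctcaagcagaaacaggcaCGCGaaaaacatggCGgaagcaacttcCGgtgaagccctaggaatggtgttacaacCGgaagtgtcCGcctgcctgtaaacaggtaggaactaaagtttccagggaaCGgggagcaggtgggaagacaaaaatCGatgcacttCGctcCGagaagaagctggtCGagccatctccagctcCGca
Snrpn: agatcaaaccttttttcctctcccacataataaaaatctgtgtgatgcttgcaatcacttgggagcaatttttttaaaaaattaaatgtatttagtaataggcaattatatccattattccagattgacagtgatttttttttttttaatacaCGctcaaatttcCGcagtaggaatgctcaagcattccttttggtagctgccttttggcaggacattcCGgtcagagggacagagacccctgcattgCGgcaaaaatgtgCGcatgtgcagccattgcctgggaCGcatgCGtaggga
Ube3a: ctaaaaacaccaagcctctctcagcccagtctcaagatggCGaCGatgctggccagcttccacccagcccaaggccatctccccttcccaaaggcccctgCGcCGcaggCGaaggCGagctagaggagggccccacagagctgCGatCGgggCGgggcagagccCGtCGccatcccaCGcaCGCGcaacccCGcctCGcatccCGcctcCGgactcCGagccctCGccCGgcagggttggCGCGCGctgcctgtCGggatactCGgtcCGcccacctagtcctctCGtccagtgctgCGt

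The windows hold 11 CG in Ndn, 10 in Magel2, 15 in Mkrn3, 7 in Snrpn and 29 in Ube3a. The dinucleotide reads the same on both strands. It was present in 47 of 47 start-site windows of the 33 imprinted genes in the table, with a median of 15, and in 94.6% of all 32851 windows, with a median of 7. Not 1 of the 47 windows was touched by a peak of either library, where 1.18% of all windows were in KO and 1.25% in WT. Within 2 kb of the start site, 4 of the 47 (8.51%) had a peak in KO and 3 (6.38%) in WT, against 3.62% of all windows in each library. The 4 are the Ndn, Magel2, Mkrn3 and Snrpn windows printed above, of which that of Snrpn had one in KO only.

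A minority of the imprinted genes carried a peak, and 7 of the 9 genes that did had one in both libraries. In KO 7 of 40 genes had a peak in the body or within 2 kb (17.5%, 7.34 to 32.8%), and in WT 9 of 40 (22.5%, 10.8 to 38.5%). Among all protein-coding genes the shares were 9.9% in KO and 9.69% in WT. The 7 genes with a peak in KO, which all had one in WT as well, were Snrpn, Ndn, Magel2, Mkrn3, Sgce, Peg10 and Ppp1r9a. Peg12 and Grb10 had a peak in WT only, and 0 genes in KO only. Among all protein-coding genes 7.78% had a peak in both libraries, 2.11% in KO only and 1.9% in WT only.

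The 9 genes with a peak lay in 3 of the 16 clusters, most of them in the Snrpn cluster. Inside it, 4 of 6 genes had one in KO and 5 of 6 in WT. Of the 34 genes outside it, 3 had a peak in KO (8.82%) and 4 in WT (11.8%). These shares were close to that of all protein-coding genes, but the genes came from only 2 of 15 clusters. They were the 3 genes of the Peg10 cluster in both libraries, and Grb10 in WT. The remaining 31 of the 40 genes had no peak in either library, and absence from a list means that no region passed the authors' threshold. The count among short genes rests on the Snrpn cluster alone. Of the 13 imprinted genes with bodies under 5 kb, 3 had a peak in KO (23.1%) and 4 in WT (30.8%), all of them in the Snrpn cluster, against 6.84% and 6.7% of the 4973 protein-coding genes of that length. A peak in both libraries was found for 3 of the 13 genes, in KO only for 0 and in WT only for 1, where 4.04%, 2.8% and 2.65% of those protein-coding genes had one, and 9.49% had one in either. The 9 short genes outside the Snrpn cluster (H19, Ins2, Ascl2, Cdkn1c, Phlda2, Dio3, Nnat, Zrsr1 and Nap1l5) had 0 peaks in both libraries.

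**Figure D1:**
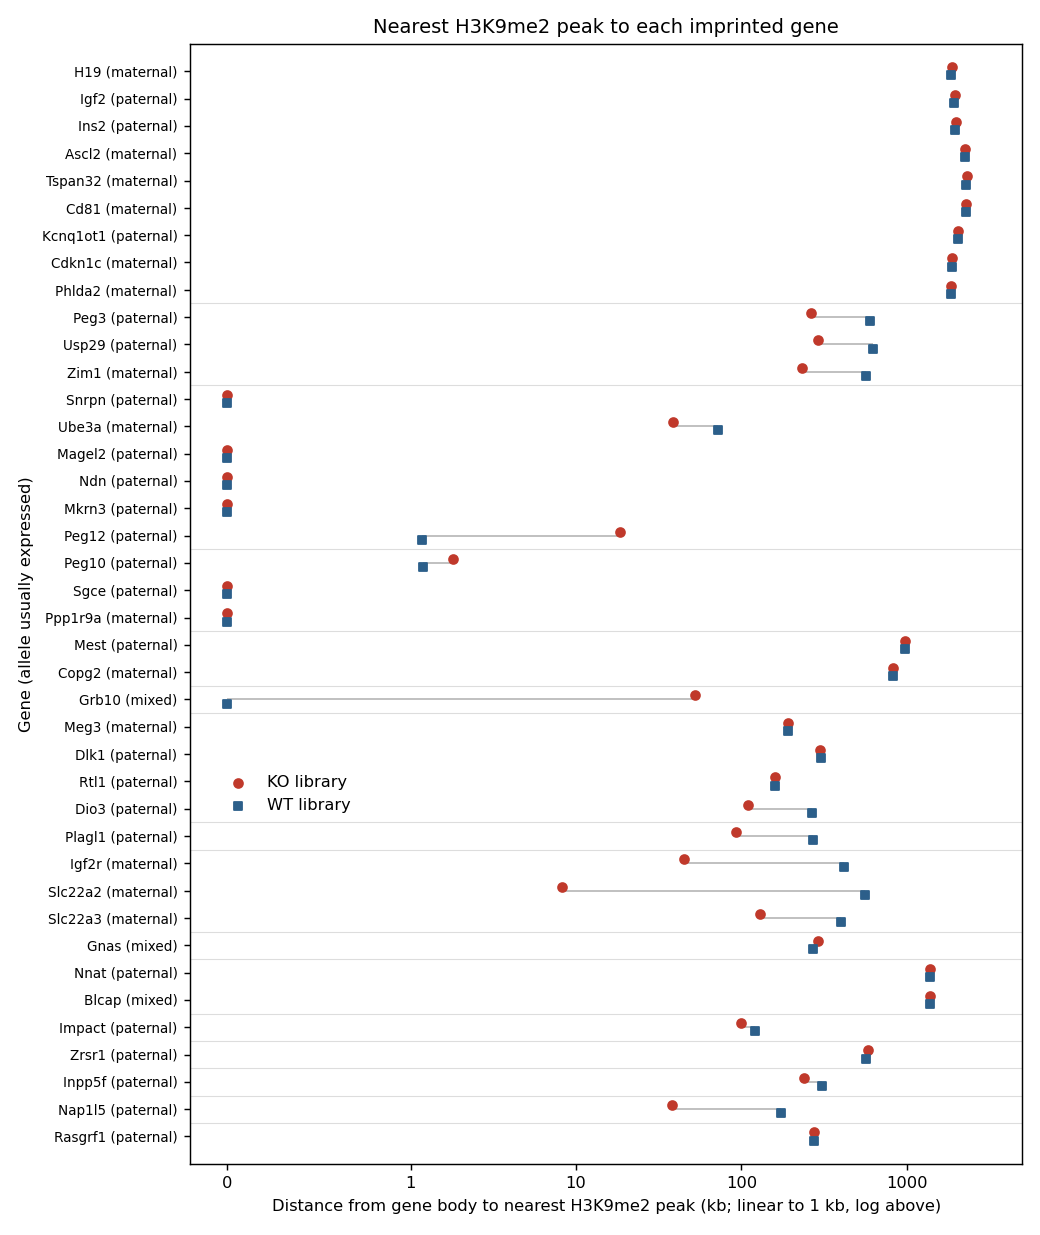
Distance from the body of each of the 40 imprinted genes to the nearest H3K9me2 peak, in kb, linear to 1 kb and logarithmic above, with KO as circles and WT as squares and genes grouped by cluster. Genes at 0 hold a peak in the body. The 9 genes of the H19-Kcnq1 cluster lie 1838 kb or more from any peak in both libraries, while Slc22a2 was 8.26 kb from a peak in KO and 559.9 kb in WT.

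Snrpn, which encodes a core protein of splicing ribonucleoproteins, held the most peaks of the 40 genes. Its annotated body, 468 kb with the distant upstream exons included (chr7:59982495-60450177), had 11 peaks in KO and 7 in WT, a KO to WT ratio of 1.57 (0.556 to 4.78). In each library 5 of these were overlapped by a peak of the other. The 11 KO peaks covered 1.04% of the gene window and the 7 WT peaks 0.723%. They lay mostly over the upstream exons: 10 of 11 in KO and 7 of 7 in WT began at position 60227665 of the chromosome or above, the first of them in both libraries at exactly that base, while the main start site is at 60005199. The same interval is part of Snhg14, the long noncoding transcript of the cluster, so the peaks count for both genes.

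At the main Snrpn start site, where the imprinting control region of the cluster lies, 1 KO peak stood 1072 to 1396 bp downstream (chr7:60003803-60004127). It was 325 bp wide, with a pileup of 13.8, a fold enrichment of 3.30 over the local background and a −log10 q of 2.65. Pileup, fold enrichment and q are the authors' values for each peak. The nearest WT peak was 145 kb from that start site. The peak also lies in Snurf, which shares the first exons of Snrpn. Its −log10 q of 2.65 was below 3.01, the median of KO peaks outside the imprinted clusters.

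Ndn, Magel2 and Mkrn3, compact genes close together, each held 1 peak in the gene body in both libraries. Ndn encodes necdin, a growth suppressor of the MAGE family. Its KO peak (chr7:62348456-62348808, 353 bp) began 179 bp downstream of the start site and its WT peak (chr7:62348409-62348928, 520 bp) 132 bp downstream, and the KO peak lay wholly within the WT one. The fold enrichment was 2.99 in KO and 2.76 in WT, with a −log10 q of 2.99 and 3.80.

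Mkrn3 encodes a makorin ring-finger protein that restrains the onset of puberty. The KO peak (chr7:62418747-62419361, 615 bp) began 792 bp downstream of the start site and the WT peak (chr7:62418826-62419310, 485 bp) 843 bp downstream. Here the WT peak lay wholly within the KO one. The fold enrichment was 3.27 in KO and 3.11 in WT, with a −log10 q of 3.96 and 5.07.

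Magel2, a MAGE family gene whose product works with ubiquitin ligases in endosomal protein recycling, had its peaks at different places. The KO peak (chr7:62378745-62378949, 205 bp) began 1766 bp downstream of the start site, with a fold enrichment of 2.39. The WT peak (chr7:62377137-62377604, 468 bp) began 158 bp downstream, with a fold enrichment of 2.10, and 1140 bp separated the 2. So the gene counts as having a peak in both libraries with 0 shared positions. These peaks also lie in Gm32061, a lncRNA that overlaps Ndn, Magel2 and Mkrn3.

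Peg12, a Frat family gene whose relatives bind the kinase GSK3, had a peak in WT only. That peak (chr7:62460184-62460706, 523 bp) lay 1.17 kb beyond the 3′ end of the gene, with a pileup of 33.7, a fold enrichment of 2.64 and a −log10 q of 4.33. The nearest KO peak was 18.4 kb away. With the gene body alone counted, Peg12 had a peak in neither library.

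**Figure D2:**
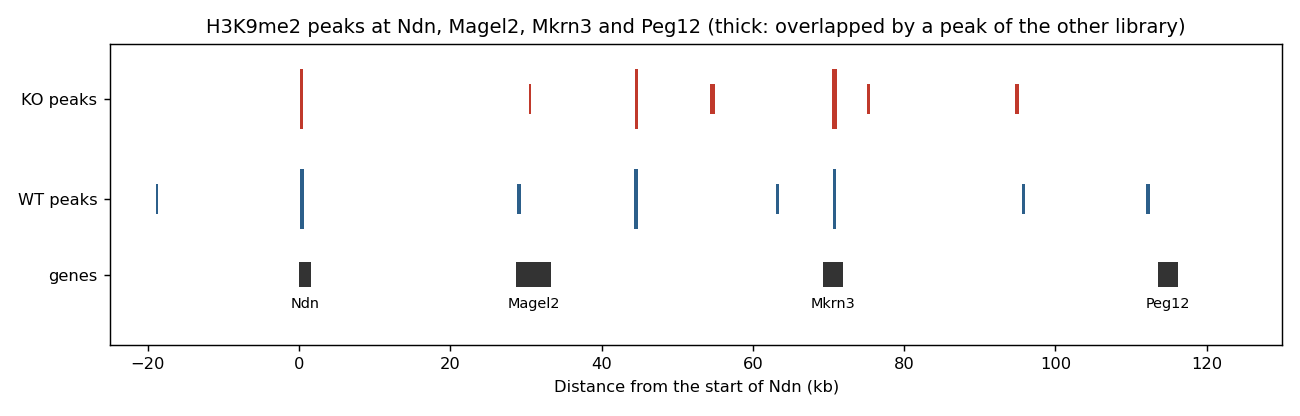
Peaks of the KO library (upper row) and the WT library (lower row) along the stretch holding Ndn, Magel2, Mkrn3 and Peg12, by distance from the start of Ndn in kb, to scale, with thick bars for peaks overlapped by the other library. Between the start of Ndn and the end of Peg12 each library had 7 peaks, 3 of them overlapped, and those in Ndn and Mkrn3 coincide while those in Magel2 do not.

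Ube3a, the ubiquitin ligase whose loss causes Angelman syndrome, had no peak in its 82088 bp body in either library. The nearest peak was 38.7 kb away in KO and 72.6 kb in WT, on the side away from Snrpn. Measured along the chromosome, the 4.24 Mb Snrpn window held 60 peaks in KO (14.2 per Mb) and 46 in WT (10.9 per Mb), a ratio of 1.30 (0.874 to 1.96). In each list 29 were overlapped by the other. From the end of Ube3a to Snrpn, the stretch of Snhg14 that carries the small nucleolar RNA (snoRNA) arrays, there were 11 KO peaks and 9 WT peaks. From Snrpn to Ndn, 1.898 Mb with 0 imprinted genes of the set, there were 21 KO peaks and 14 WT peaks, with 7 overlapped in each. From Ndn to Peg12, only 0.116 Mb, there were 7 and 7, or 60.2 per Mb in both libraries, and over the 0.5 Mb beyond Peg12 there was 1 in KO and 0 in WT.

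The snoRNA arrays carried the strongest shared signal of the cluster. The 11 KO peaks spanned 68.6 kb (chr7:59728840-59797479) and the 9 WT peaks 124 kb (chr7:59735874-59859902). Among them 7 of the KO peaks and 8 of the WT peaks were overlapped by the other library. Their pileup ran from 18.6 to 58.3 in KO and from 18.6 to 73.9 in WT, and 8 KO peaks and 7 WT peaks reached a q of 1e-05 or lower. Of all peaks in the 16 cluster windows ranked by q within each list, ranks 2 to 5 fell in this stretch in both libraries. Of 206 annotated snoRNAs there, 4 touched a KO peak and 4 a WT peak. The snoRNA genes are near-identical repeats, so the placement of reads among copies is uncertain.

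**Figure D3:**
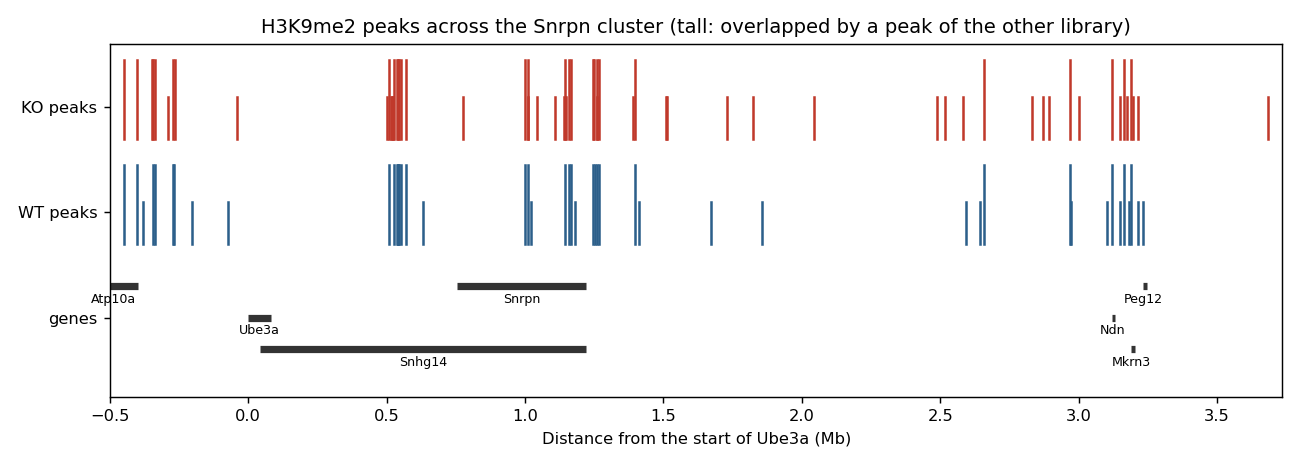
Peaks of the KO library (upper row) and the WT library (middle row) over the Snrpn cluster with 500 kb flanks, by distance from the start of Ube3a in Mb, above the gene bodies; tall lines are peaks overlapped by the other library. The 11 KO and 9 WT peaks of the snoRNA arrays form the dense block between Ube3a and Snrpn, and the Ube3a body is empty in both rows.

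In the Peg10 cluster on chromosome 6 all 3 genes had a peak in both libraries, at coinciding sites. Sgce encodes epsilon-sarcoglycan, a membrane protein whose human counterpart is mutated in myoclonus dystonia, and is transcribed from the paternal allele. Its body held 2 peaks in KO and 1 in WT. The KO peak at chr6:4716365-4716704 overlapped the WT peak at chr6:4716479-4716892 by 226 bp, and the other KO peak, chr6:4709047-4709940, was not overlapped by a WT peak.

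Peg10, a paternally transcribed gene derived from a retrotransposon and needed for the placenta, had a peak beyond its upper end rather than in its body. The KO peak (chr6:4762317-4762590) lay 1.80 kb from it with a fold enrichment of 4.36, and the WT peak (chr6:4761712-4762674) 1.20 kb from it with a fold enrichment of 3.32. The KO peak lay within the WT one, and both reached a q of 1e-05 or lower.

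Ppp1r9a, the neurabin gene, which encodes an actin-binding protein of neurons, was the only maternally transcribed gene of the set with a peak. Its single site (KO chr6:4923778-4924329, WT chr6:4923684-4924321) had a pileup of 454 in KO and 622 in WT, with a fold enrichment of 15.4 and 12.8. The 2 peaks shared 544 bp. It ranked first by q among the cluster peaks of both libraries and was the only one of 218 KO and 206 WT peaks with a pileup of 100 or more. The next highest −log10 q was 13.5 in KO and 18.0 in WT, against 396 and 505 here. All duplicate tags were kept in calling, and their part in this narrow high pileup was not tested.

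Grb10, an adaptor that dampens insulin receptor signalling and is transcribed from the maternal allele in most tissues and the paternal one in neurons, had a peak in WT only. The WT peak (chr11:12018305-12018731) had a fold enrichment of 2.62 and a −log10 q of 2.39, and lay 9.24 kb and 18.7 kb downstream of the 2 annotated start sites. The nearest KO peak was 52.6 kb from the gene.

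The windows of the 9 genes held 18 peaks in KO and 15 in WT. Of these, 10 in each were overlapped by the other library, or 55.6% of KO peaks (30.8 to 78.5%) and 66.7% of WT peaks (38.4 to 88.2%). Outside the clusters the shares were 45.8% in KO and 46.4% in WT, both within these intervals. Their median width was 346.5 bp in KO and 468 bp in WT, and their median −log10 q 2.96 and 3.80. The caller extended tags to an estimated fragment length of 189 bp in KO and 292 bp in WT, and the median width outside the clusters was 376 bp and 487 bp. At a q of 1e-05 or lower, 2 of the 18 KO peaks (at Peg10 and Ppp1r9a) and 4 of the 15 WT peaks (also at Snrpn and Mkrn3) remained.

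By parental class, 6 of 23 paternally transcribed genes had a peak in KO (26.1%) and 7 in WT (30.4%). Of the 14 maternally transcribed genes 1 had a peak in each library (7.14%). That gene was Ppp1r9a, whose only peak had a pileup of 454 in KO and 622 in WT. With pileups of 100 or more left out, no maternal gene had a peak. Of the 3 of mixed expression, 0 had one in KO and 1 in WT. The paternal genes with a peak came from 2 of 13 clusters, and genes of a cluster share their neighbourhood. Without the Snrpn cluster, 2 of 18 paternal genes (11.1%) and 1 of 13 maternal genes (7.69%) had a peak in each library. The median distance to the nearest peak was 159 kb in KO and 270.2 kb in WT for paternal genes, and 527 kb and 693 kb for maternal genes. In both libraries 6 of the 14 maternal genes lay in the H19-Kcnq1 cluster, over 1 Mb from any peak.

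Over all 40 genes the median distance was 236 kb in KO and 353 kb in WT, beside 324 kb and 345 kb for all protein-coding genes. A peak within 500 kb was found for 26 genes in KO (65%) and 22 in WT (55%), against 59.8% and 58.4% of protein-coding genes. For 14 genes (35%) there was none in either library, against 38%. Both shares were near those of all protein-coding genes.

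The H19-Kcnq1 cluster on chromosome 7, which has the most genes of the 16, had no peak at all. It holds Igf2 and Ins2, a growth factor and an insulin gene, and H19, whose RNA is transcribed from the opposite allele to Igf2. It also holds Kcnq1ot1, the lncRNA that silences its neighbours in cis, with Cdkn1c (a cyclin-dependent kinase inhibitor), Phlda2 (a brake on placental growth), Ascl2 (a transcription factor of trophoblast), Cd81 and Tspan32 (tetraspanins). All 9 sat in 1 stretch of 4.62 Mb, chr7:140722253-145340828, without a peak in either library. The nearest peak ranged from 1838 kb (Phlda2) to 2299.94 kb (Tspan32) away in KO, and from 1838 kb to 2282.66 kb in WT. This includes Cd81, whose protein is part of the B cell coreceptor, and Ascl2 and Tspan32, all of which lie below Kcnq1ot1 on the chromosome.

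The Nnat, Mest and Zrsr1 clusters also had 0 peaks within 500 kb in either library. Nnat (a membrane proteolipid of neurons and endocrine cells) and Blcap, the gene whose intron holds it, lay in a peak-free stretch of 4.85 Mb on chromosome 2. Mest (a hydrolase-like protein of mesoderm) and Copg2 (a subunit of the COPI vesicle coat) lay in one of 1.97 Mb on chromosome 6. Zrsr1, a retrogene for an RNA-binding protein related to a splicing factor subunit, lay in one of 2.99 Mb on chromosome 11. Of 2672 bins of 1 Mb across the chromosomes, 21.1% had no peak in either library (22.9% had no KO peak and 23.5% no WT peak), beside 4 of the 16 cluster windows here. All windows are longer than a bin, that of Snrpn 4.24 Mb, so the comparison is not like for like.

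In the remaining clusters the peaks stood away from the genes. Peg3 and its neighbours Usp29 and Zim1, zinc finger and protease genes, had 1 peak in the cluster window in KO, 234 kb from Zim1, and 0 in WT. Plagl1, a zinc finger gene linked to transient neonatal diabetes in humans, was 92.5 kb from its nearest peak in KO and 270.2 kb in WT. The farther site, inside Phactr2, was present in both libraries.

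Igf2r, which clears IGF2 from the cell surface, and the organic cation transporters Slc22a2 and Slc22a3 had no peak in their windows. A KO peak 540 bp wide (chr17:12636746-12637285) lay between Slc22a2 and Igf2r, 8.26 kb from Slc22a2 and 45.1 kb from Igf2r, with a fold enrichment of 3.12 and a −log10 q of 2.26. In WT the nearest peak was 559.9 kb from Slc22a2 and 419 kb from Igf2r. Slc22a3, the gene that G9a helps silence in placenta, was 129 kb from this KO peak and 402 kb from the nearest WT peak. The distances of all 3 genes in KO therefore rest on 1 low-ranking peak.

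In the Dlk1-Meg3 cluster on chromosome 12 the peaks filled 1 gap between genes. Dlk1 (a Notch ligand-like protein), Rtl1 (a retrotransposon-derived placental gene) and Meg3 (a lncRNA of the maternal allele) had 0 peaks, and their nearest was 300.5 kb, 159 kb and 192 kb away in KO and 300.7 kb, 159.6 kb and 192 kb in WT. All 13 KO peaks and all 9 WT peaks of the window stood between Mirg, the last of the maternal noncoding genes, and Dio3, the deiodinase that inactivates thyroid hormone, a stretch of 529.8 kb. In each library 5 were overlapped by the other. Dio3 was 110.1 kb from its nearest peak in KO and 266 kb in WT.

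At Gnas, Impact, Inpp5f, Rasgrf1 and Nap1l5 the gene was bare and the peaks stood on 1 or both sides. Gnas, which encodes the stimulatory G protein alpha subunit, had its 5 KO and 6 WT peaks below it on the chromosome, 289 kb and 269 kb away at the nearest. Impact, a regulator of translation under amino acid shortage, had its 18 KO and 19 WT peaks above it, 99.1 kb and 121 kb away. Inpp5f, a phosphoinositide phosphatase, had 3 KO and 5 WT peaks, all above it. Rasgrf1, an exchange factor for Ras in neurons, had 4 KO peaks below and 16 above, and 5 and 19 in WT, the nearest 273 kb and 275 kb away. Nap1l5, a single-exon gene of the nucleosome assembly protein family, had the densest window, with 33 KO peaks (32.9 per Mb) and 32 WT peaks (31.9 per Mb). Even so its nearest peak was 38.0 kb away in KO and 173 kb in WT.

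**Figure D4:**
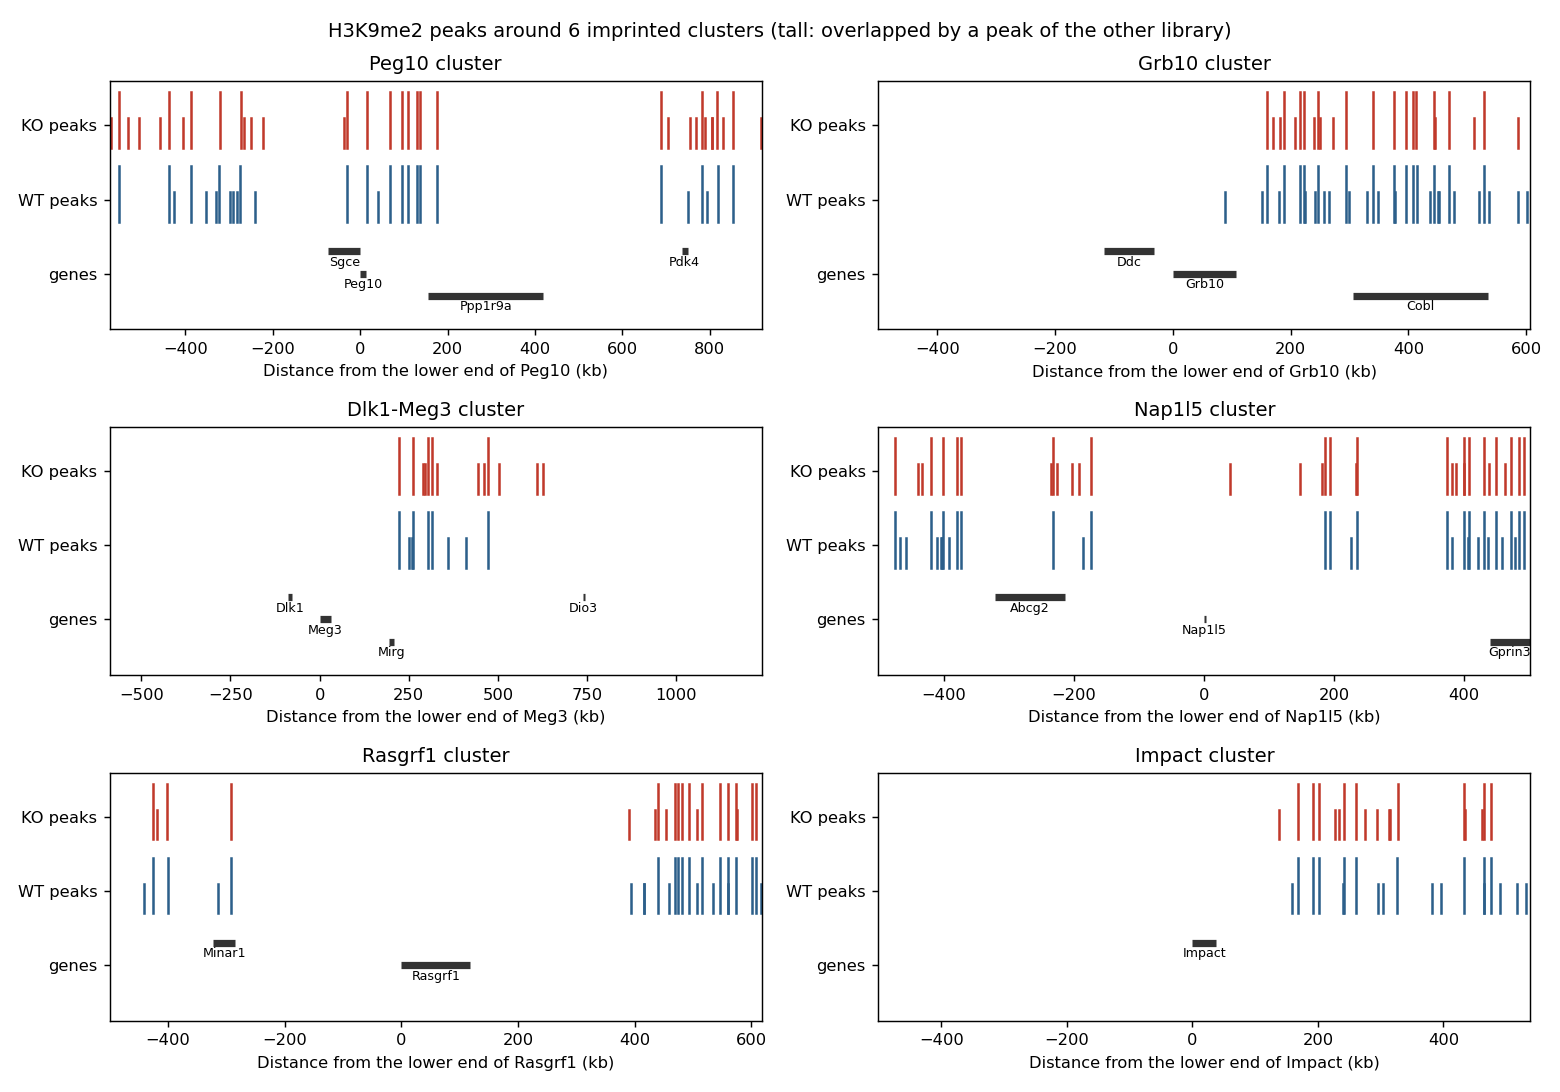
Peaks of the KO library (upper rows) and the WT library (middle rows) in 6 cluster windows with the imprinted genes and selected neighbours below, by distance in kb; tall lines are peaks overlapped by the other library. In the Grb10 and Impact windows nearly all or all peaks lie above the gene, in the Dlk1-Meg3 window all lie between Mirg and Dio3, and the Nap1l5 and Rasgrf1 bodies are empty.

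Over the 16 windows, 22.8 Mb in all, there were 218 KO peaks (9.58 per Mb, 8.35 to 10.9) and 206 WT peaks (9.05 per Mb, 7.86 to 10.4). Outside them the density was 12.1 per Mb in KO (11.97 to 12.2) and 11.9 in WT (11.8 to 12.04). In peak number, the ratio of KO to WT was 1.06 (0.871 to 1.29) inside and 1.02 (1.001 to 1.03) outside, and 0.988 (0.788 to 1.24) without the Snrpn window. Peaks occurred in 12 clusters in KO and in 11 of those in WT, with Peg3 the exception. The mean hides a wide spread, with a median of 4.58 per Mb in KO and 4.76 in WT and a range from 0 to 32.9 and 31.9. The clusters above the outside density were Nap1l5, Peg10, Grb10, Rasgrf1, Impact and Snrpn in KO, and the same except Snrpn in WT.

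**Figure D5:**
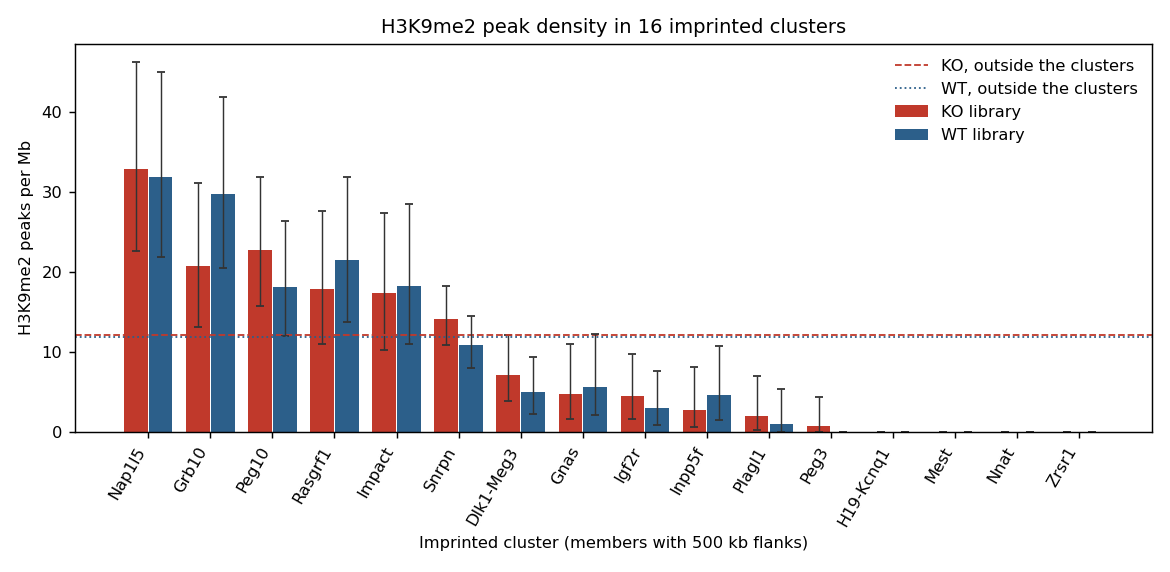
H3K9me2 peaks per Mb in the 16 imprinted cluster windows, KO bars left of WT bars, with exact 95% Poisson intervals for counting error where a peak was present and lines for the density outside the clusters (12.1 per Mb in KO, 11.9 in WT). The intervals of the 2 libraries overlap in every cluster with peaks in both, and 4 clusters have none.

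Clusters with more protein-coding genes per Mb tended to have fewer peaks. Across the 16 windows Spearman's rho between gene density and peak density was -0.64 in KO and -0.67 in WT, given as a description since the windows share the libraries and differ in length. The relation was loose, since the Zrsr1 window, with 7.96 protein-coding genes per Mb, had 0 peaks in both libraries, while the Nap1l5 window, with 7.98, had the highest peak density of the 16.

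In the cluster windows 113 KO peaks were overlapped by a WT peak (51.8%, 45.0 to 58.6%) and 113 WT peaks by a KO peak (54.9%, 47.8 to 61.8%). Outside them the shares were 45.8% in KO (45.3 to 46.4%) and 46.4% in WT (45.8 to 46.9%). Of the cluster peaks, 27 in KO (12.4%) and 37 in WT (18.0%) reached a q of 1e-05 or lower, against 8.07% and 12.96% outside. Over 100 kb from any of the 40 genes were 177 KO peaks (81.2%) and 172 WT peaks (83.5%), in 68.3% of the length of the windows, a share that the 500 kb flanks largely set. Outside every annotated gene were 139 KO peaks (63.8%) and 123 WT peaks (59.7%). The same share over all peaks is not given here, so these values are not read as a trait of the clusters.

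Among the neighbours in these windows, Cobl, an actin nucleator next to Grb10 that is itself imprinted in some tissues, had 10 peaks in KO and 17 in WT, a ratio of 0.588 (0.241 to 1.36). The whole Grb10 window had 23 and 33, a ratio of 0.697 (0.391 to 1.22). Gprin3, near Nap1l5, runs past the edge of the window and had 6 in KO and 7 in WT in the part inside it, the only part counted. Abcg2, a drug efflux transporter, had 3 in KO and 1 in WT. Atp10a, a lipid flippase beside Ube3a, had 2 and 2. Minar1 had 1 in KO and 2 in WT, Col1a2 and Phactr2 had 1 and 1, and Pdk4 had 0 and 1. Olfr1344, Snurf, Smok2a, Unc93a and Fam13a each had 1 peak in KO and 0 in WT. With a peak in either library were 1 of 27 neighbours in the Peg3 window, 2 of 4 in Snrpn, 2 of 8 in Peg10 and 3 of 19 in Igf2r. In Nap1l5 5 of 7 had one, in Grb10 and in Rasgrf1 1 of 7, and in Plagl1 1 of 9. In the remaining windows no neighbour had a peak. Not all of them are named, so the named genes give no count of directions. Among all protein-coding genes 11.8% had a peak in either library, 2.11% in KO only and 1.9% in WT only.

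Another list held 39 further imprinted genes, of which 37 matched the annotation by symbol. In KO 6 of them had a peak (16.2%) and in WT 7 (18.9%), against 9.9% and 9.69% of protein-coding genes, and 30 had none in either library. They are not independent of the 40, since Snhg14, Cobl and Atp10a lie in the same windows. Snhg14 had 22 in KO and 16 in WT, counted partly above under Snrpn. Cobl and Atp10a are given above, Calcr, the calcitonin receptor, had 2 and 4, Zdbf2 2 and 2, Dcn, the matrix proteoglycan decorin, 1 and 2, and Pde10a, a brain phosphodiesterase, 0 and 2. Kcnq1, Airn (the lncRNA that silences the Igf2r neighbours), Rian, Mirg, Trappc9 and Peg13 were among those with none. Of 6 genes with imprinting that rests on histone marks rather than DNA methylation, Sfmbt2, a Polycomb-associated gene, had 6 peaks in KO and 3 in WT (ratio 2, 0.427 to 12.4), and the other 5 had 0. That is 1 of 6 genes, too few to set against the 9.9% and 9.69% of protein-coding genes. None of 12 genes that establish or maintain imprints, among them Zfp57, Trim28, Dnmt1, Uhrf1 and Ctcf, had a peak in either library, where 11.8% of protein-coding genes had one, so a count of 0 in a list this short is near the background.

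Lists of cell type markers were looked up as well, but with a peak in only 9.9% of protein-coding genes in KO and 9.69% in WT they cannot check the labelled cell type. The B cell genes Cd79a, Cd79b, Ms4a1, Pax5, Cd22 and Ebf1 had 0 peaks in either library. Of 6 T cell genes 5 had 0 as well, and Themis had 23 in KO and 22 in WT. Of 4 myeloid genes 3 had 0, and Adgre1 had 1 in each. Of the neuronal genes, Dlg2 had 95 in KO and 98 in WT, Cntnap2 had 69 in KO and 90 in WT, and Rbfox3 had 0. The bodies of Dlg2 and Cntnap2 are 1973 kb and 2241 kb long. Those of the B cell genes named run from 3.22 kb (Cd79b) to 390 kb (Ebf1), so the counts are not comparable between these genes. A peak list of a repressive mark does not measure expression, nor does it check the loss of Jmjd1c.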

How the data were processed

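Both libraries were made with a commercial CUT&Tag kit, per the labels' protocols, and were grouped by the genotype label. Tools listed in the submitters' processing notes, with no role given, were Bowtie2 2.4.2, Trim Galore 0.6.6, HOMER, Picard, deepTools, SAMtools 1.11 and MACS2, and the build was mm10. The authors, per the file headers, called broad peaks in each library on its own with MACS 2.2.7.1 at a q of 0.01, with all duplicates kept, no control library and a local background window of 10000 bp. The deposited pileup is a coverage signal of tags extended to the fragment length d, not scaled between libraries. The deposited fold enrichment is a ratio of pileup to local background, and q-values are given by the authors as −log10. All 3 depend on d (189 bp in KO, 292 bp in WT), which also sets the smallest peak. Ranks were taken inside 1 list, and shared cuts on q, pileup or width were applied to both. Values printed for KO and WT at a site, and counts at such a cut, carry the difference in d and are not a measured change. Without a control, sites that collect reads for other reasons are kept, and very broad domains raise their own background and can go uncalled.

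From these lists, 32149 KO and 31623 WT peaks (chromosomes 1 to 19, X and Y) were joined to RefSeq genes and promoter windows of GRCm38.p6, leaving out 348 genes of patch scaffolds. Overlap needed 1 bp, coordinates count from 1, and distance runs from a peak to the gene body. Shares carry Clopper-Pearson, counts Poisson and ratios binomial-based exact intervals. Python 3.11.15, NumPy 2.4.6, pandas 2.3.3, SciPy 1.17.1 and Matplotlib 3.10.9 were used, and overlap, distance and interval functions were tested on simulated data. The 40 genes, the other lists and the parental classes were chosen with earlier results of these data known. Named were all 40 genes, up to 3 neighbours per window with the most peaks, the other listed genes with a peak, and the 5 peaks of lowest q per list. A few neighbour and marker genes are left unreported here. Alternatives were a stricter q, other flanks, wide peaks only, merged peaks, other overlap rules, equal peak numbers, KO peaks widened by the 103 bp difference in d, and high pileups left out.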

Additional observations from a re-analysis of the deposited data

How the results depend on the processing

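No paired analysis was possible because each genotype had 1 library and no result comes from a test. Of 68 values recomputed over all alternatives, 44 moved little, and 24 moved by more than the counting interval or 1.5 times. Counting the gene body alone, 10 kb gene flanks, merging peaks within 5 kb, equal peak numbers, widening KO peaks, leaving out pileups of 100 or more and accepting a peak of the other library within 1 kb moved 0 values past those limits. Some of these could hardly move a value. Leaving out high pileups removed 1 cluster peak per library, and equal peak numbers left 216 KO and 206 WT cluster peaks. The tally is therefore not a rate of robustness.

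At a q of 1e-05 or lower, 2 genes had a peak in KO and 4 in WT, with 27 KO and 37 WT cluster peaks, 6 clusters with a peak in both, a WT overlapped share of 40.5% and a KO to WT ratio of 0.730, below 1. With peaks at least 1 kb wide, 0 genes had a peak in KO and 1 in WT, with 12 KO and 20 WT cluster peaks, 5 clusters with both, overlapped shares of 66.7% in KO and 40% in WT, and a ratio of 0.6. Both of these filters depend on d. With cluster flanks of 100 kb there were 81 KO and 61 WT peaks, 4 clusters with both, a WT overlapped share of 62.3% and a ratio of 1.33, and with flanks of 1 Mb 422 KO and 418 WT peaks. A reciprocal overlap of 50% left 33.0% of KO and 35.0% of WT cluster peaks overlapped. Stricter filters and narrower flanks leave fewer peaks by construction, wider flanks more, and a stricter overlap rule can only lower the overlapped share. Why the ratios and the other shares moved was not tested.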

Other observations

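The 5 cluster peaks of lowest q in each list fell at 2 places only, the site in Ppp1r9a and the snoRNA arrays of Snhg14. In KO the 4 snoRNA array peaks had a −log10 q of 13.5, 12.8, 10.6 and 8.61, and in WT of 18.0, 17.7, 9.95 and 9.84, and all were overlapped by the other library. The site chr7:59754133-59754676 in KO and chr7:59754133-59754657 in WT began at the same base in both lists, with a fold enrichment of 4.998 in KO and 5.78 in WT. Single-peak differences between the libraries, such as those at Peg12, Grb10, Slc22a2 and the main Snrpn start site, have no replicate check here.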
